A study of Mus musculus with 32 samples.

Results

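Mouse embryonic stem (ES) cells that lack *Etv5* were compared directly with ES cells that lack *Rbpj*, both cultured in 2i. The members are 6 libraries of the 32 in the series, chosen by their genotype and medium labels: 3 from Etv5-KO cells in 2i and 3 from RbpJ-KO cells in 2i. All lines derive from RGd2, an ES cell line in which a destabilised GFP reporter sits at the *Rex1* (*Zfp42*) locus, so mutants and controls alike carry the reporter. The medium 2i contains the MEK inhibitor PD0325901 and the GSK3 inhibitor CHIR99021 in serum-free N2B27. Every library came from its own clone, made with CRISPR/Cas9 and 2 guide RNAs per gene: clones c16, c17 and c1 for Etv5-KO, and clones c28, c33 and c36 for RbpJ-KO. The lines were kept in CHIR99021 with LIF and moved into 2i shortly before RNA was taken, because Etv5-KO cells do not expand well under the MEK inhibitor. The 3 RGd2 libraries in 2i, from 2 parental cultures and 1 clonal subline, are given beside the mutants as a reference level and take no part in the direct contrast. The comparisons of each mutant with RGd2 share those libraries, so they are set side by side and not counted as separate support. The contrast asks in which genes the single mutants differ from each other, without reference to the parental line.

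The gene *Etv5* encodes a DNA-binding protein with an ETS domain. Its closest relatives are *Etv1* and *Etv4* (the PEA3 genes), and in many tissues its transcription rises in response to fibroblast growth factors (FGFs), which act through the kinase ERK. RBPJ is the DNA-binding partner of the Notch receptors: when a Notch receptor is cleaved on binding a ligand, its intracellular domain joins RBPJ and activates genes such as those of the Hes and Hey families. Without Notch, RBPJ binds corepressors and can hold the same genes down. In 2i, with ERK and GSK3 inhibited, ES cells stay in the naive state of the early epiblast.

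The guide sequences are shown because they define the mutants. Each is printed 5′ to 3′ in lower case with the adjoining protospacer-adjacent motif (PAM), read from the annotated transcript, in capitals. In GRCm38, the *Etv5* guides lie in coding exon 8 (chr16:22401804-22401823, minus strand) and coding exon 9 (chr16:22399336-22399355, plus strand) of transcript *Etv5-201*. The *Rbpj* guides lie in coding exon 5 (chr5:53645980-53645999, minus strand) and coding exon 7 (chr5:53649718-53649737, minus strand) of transcript *Rbpj-201*.
Etv5 exon 8: cgcagctccgccaccccttcAGG
Etv5 exon 9: gaaatacccgcctctcatgtAGG
Rbpj exon 5: tgacctttatccgcttgctgAGG
Rbpj exon 7: gcttgacagtctgcccgtaaTGG
The outer ends of the protospacers span 2488 bases of *Etv5* and 3758 bases of *Rbpj*.

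The 6 libraries held between 13394552 reads counted on genes (RbpJ-KO c28) and 38225032 (Etv5-KO c16), and the RGd2 libraries between 5986857 and 37042477. Counts were scaled with the ERCC spike-ins, RNAs added in a fixed amount, which made up 1.33% ± 0.083 of all counts in Etv5-KO and 1.25% ± 0.0128 in RbpJ-KO (SD, n = 3 each). That share did not separate the groups (exact permutation test, two-sided p = 0.3, where 3 against 3 can give no less than 0.1). The median difference between 2 libraries, over genes above the expression minimum used below (a group mean of 1 FPKM, counts scaled for gene length and library total), was 0.0841 to 0.108 on the log2 scale among Etv5-KO clones, 0.0891 to 0.182 among RbpJ-KO clones and 0.189 to 0.253 between the mutants. Clone c28 stood furthest from its own group. Markers of ES cells were high in all 6 libraries. The pluripotency gene *Pou5f1*, which encodes OCT4, was at 342 to 347 FPKM in Etv5-KO and 377 to 416 in RbpJ-KO, and *Zfp42*, a naive marker and the reporter locus, at 161 to 163 and 174 to 194. Since these are bulk libraries, fewer cells of a type and less RNA per cell cannot be told apart.

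Each knockout had lost most of the RNA of its own target. Normalized *Etv5* (ENSMUSG00000013089.15) counts were 2246, 2092 and 2384 in Etv5-KO against 11861, 10187 and 11233 in RbpJ-KO and 16791, 14116 and 15517 in RGd2. Etv5-KO was thus 4.95-fold below RbpJ-KO (log2 fold change -2.31 ± 0.15, SE, adjusted p = 7.52e-15), with no overlap between libraries. In RbpJ-KO itself *Etv5* was lower than in RGd2 (log2 fold change -0.48, adjusted p = 0.0283). *Rbpj* (ENSMUSG00000039191.12) counts were 976, 1066 and 1249 in RbpJ-KO against 4990.1, 4785 and 4728 in Etv5-KO and 5097, 4328 and 3981 in RGd2. Etv5-KO was 4.39-fold above RbpJ-KO (log2 fold change 2.13 ± 0.21, adjusted p = 3.11e-10), and it did not differ detectably from RGd2 (log2 fold change 0.11, adjusted p = 0.724). These are counts over whole genes, so they do not separate the exons between the guides from the rest of the transcript. *Rbpj-ps3*, a processed pseudogene of *Rbpj* on chromosome 6, was singled out after its values were seen: it had 45.3, 43.1 and 51.7 normalized counts in Etv5-KO and 4.21, 4.48 and 5.04 in RbpJ-KO. Reads of near-identical copies can be shared between them, so its count is uncertain.

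**Figure D1:**
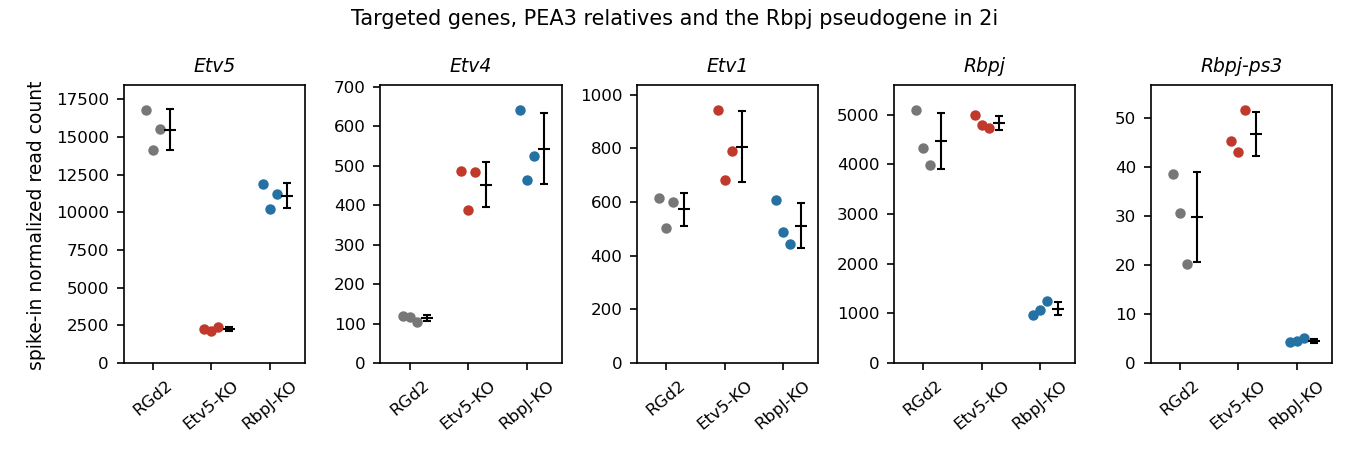
Spike-in normalized read counts (y axis, from 0) of *Etv5*, *Etv4*, *Etv1*, *Rbpj* and *Rbpj-ps3* in RGd2, Etv5-KO and RbpJ-KO cells in 2i. Points are libraries and the bars are mean ± SD (n = 3); the Etv5-KO points for *Etv5* sit between 2092 and 2384, below all RbpJ-KO points.

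The relatives of *Etv5* did not follow it. *Etv4* was at 486, 387 and 484 normalized counts in Etv5-KO and 642, 464 and 525 in RbpJ-KO, and these overlap (log2 fold change -0.25 ± 0.12, adjusted p = 0.153). In RGd2 it was at 120.0, 116 and 105, below every mutant library, and each mutant differed from RGd2 (log2 fold change 1.97 for Etv5-KO, adjusted p = 6.44e-14; 2.22 for RbpJ-KO, adjusted p = 1.66e-14). *Etv1* was higher in Etv5-KO than in RbpJ-KO, at 944, 681 and 792 against 606, 487 and 444 (log2 fold change 0.67 ± 0.13, adjusted p = 0.000163).

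Across the 19037 genes tested, 3025 were called different between the mutants (15.9%), by an adjusted p under 0.05 and at least 1 FPKM on average in one of the mutants. Of these, 629 were higher in Etv5-KO (3.3% of genes tested) and 2396 lower (12.6%). The split depends on the scaling. With TMM, which assumes that most genes do not differ, 1870 were higher (9.82%) and 1512 lower (7.94%), so 55.29% of calls were higher in place of 20.79%. With the median of ratios over genes, 9.18% of genes tested were higher and 8.9% lower. The median log2 fold change of all genes tested was -0.15 with spike-ins and 0.02 with TMM, a shift of 0.18. A list or gene is therefore read below against -0.15, and a list's calls against 3.3% higher and 12.6% lower. The TMM result is given, beside the value or in the closing section, where it changes a list's calls or a named gene's call. Without Etv5-KO clone c1, 623 genes were called higher and 1478 lower. The 3 libraries of one mutant lay apart from the 3 of the other in 36.6% of genes tested, with Etv5-KO above in 9.38% and below in 27.3%. For comparison, 20.6% of genes tested were called between Etv5-KO and RGd2 and 6.89% between RbpJ-KO and RGd2. Among larger differences, 44 called genes were at least 4-fold higher and 104 at least 4-fold lower in Etv5-KO.

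**Figure D2:**
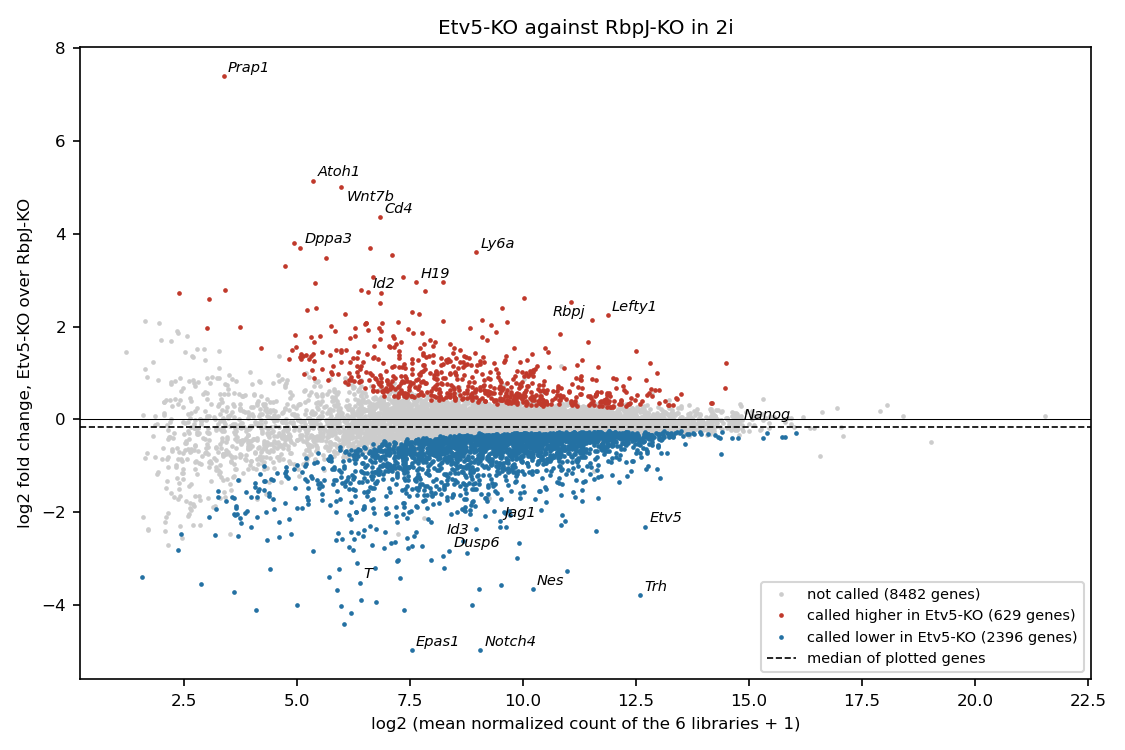
The log2 fold change of Etv5-KO over RbpJ-KO (y axis) against the log2 of the mean normalized count of the 6 libraries plus 1 (x axis), for the 11507 genes that reach 1 FPKM on average in a mutant. Red points are the 629 genes called higher and blue points the 2396 called lower; the dashed line is the median of the genes shown, -0.16, and the fitted value of the highest point, *Prap1*, rests on 0 counts in RbpJ-KO.

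The genes with the largest deficits in Etv5-KO were near their parental level in RbpJ-KO in several cases and above it in others. *Notch4*, a Notch receptor, was at 29.3, 38.8 and 30.9 normalized counts in Etv5-KO, 1209.9, 916 and 972 in RbpJ-KO and 1269, 1002 and 1086 in RGd2, a 31.3-fold difference between the mutants (log2 fold change -4.97 ± 0.17, adjusted p = 1.41e-23). *Epas1*, which encodes the hypoxia-inducible factor HIF-2α, was at 16.0, 6.75 and 10.7 against 347, 291 and 439.6, with RGd2 at 371, 279.6 and 404 (log2 fold change -4.97 ± 0.34, adjusted p = 1.27e-14). For both genes every Etv5-KO library lay far below all other libraries, and RbpJ-KO overlapped RGd2. *Tcf15*, a basic helix-loop-helix (bHLH) factor, showed the same arrangement, at 11.1, 5.91 and 14.5 in Etv5-KO, 139, 141 and 199 in RbpJ-KO and 165, 142 and 198 in RGd2 (log2 fold change -3.88 ± 0.25 between the mutants). *Ddah1*, a dimethylarginine hydrolase, was 12.5-fold lower in Etv5-KO, *Rapgef3*, the cyclic AMP-responsive exchange factor EPAC1, 17.1-fold, and *Btla*, a lymphocyte inhibitory receptor, 17.9-fold. In these 3 genes RbpJ-KO was not called different from RGd2 (adjusted p = 0.533, 0.693 and 0.636).

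In the other 6 of the 12 genes named for the largest deficit, RbpJ-KO lay above RGd2 while Etv5-KO lay below it. *Trh*, the thyrotropin-releasing hormone precursor, was at 919, 833 and 739 in Etv5-KO, 4937, 3626 and 1696 in RGd2 and 11388, 10807 and 12179.9 in RbpJ-KO, so that the mutants differed 13.8-fold (log2 fold change -3.79 ± 0.19, adjusted p = 3.10e-18). *Nes*, the intermediate filament nestin, was at 183, 210.2 and 139 in Etv5-KO and 2096, 2201 and 2320.0 in RbpJ-KO (log2 fold change -3.64 ± 0.19), with a log2 fold change against RGd2 of -1.54 and 2.10. The corresponding pair of values was -2.40 and 1.60 for the sialyltransferase *St8sia6*, -2.49 and 1.06 for the semaphorin *Sema5b*, -2.57 and 1.36 for *Clca3b*, and -3.04 and 0.98 for the small GTPase *Rerg*. All of these differences from RGd2 had an adjusted p below 0.05, the largest being 0.0102 for *Rerg* in RbpJ-KO.

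The genes with the largest excess in Etv5-KO also divided by which mutant left the RGd2 level. *Ly6a*, the stem cell antigen Sca-1, was at 954, 1037 and 780.1 in Etv5-KO, 65.2, 64.5 and 95 in RbpJ-KO and 25.1, 20.6 and 20.2 in RGd2 (12.1-fold, log2 fold change 3.60 ± 0.25, adjusted p = 2.43e-14). *Cd4*, a T cell co-receptor, was at 226, 215 and 204 against 16.8, 8.95 and 8.41 (20.4-fold, log2 fold change 4.35 ± 0.50). *Cfap206*, a cilium protein, was 8.36-fold higher and *Ceacam10* 14-fold. For *Cd4*, *Cfap206* and *Ceacam10* RbpJ-KO was not called different from RGd2 (adjusted p = 0.589, 0.661 and 0.606), whereas RbpJ-KO *Ly6a* was above RGd2 (log2 fold change 1.76).

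In 4 of the 12 genes named for the largest excess, Etv5-KO was above and RbpJ-KO below RGd2. *Wnt7b*, a Wnt ligand, was at 124, 111 and 124 in Etv5-KO, 31.3, 16.8 and 28.3 in RGd2 and 4.21, 3.58 and 3.36 in RbpJ-KO (32.2-fold between the mutants, log2 fold change 5.01 ± 0.47, adjusted p = 8.07e-11). *Atoh1*, a bHLH factor of neural and secretory cell fates, was at 75.9, 74.3 and 85.1 against 0, 2.69 and 2.52, with RGd2 at 26.0, 16.0 and 24.2 (adjusted p = 3.63e-09). The leucine zipper gene *Lzts1* and *Ms4a10* were arranged alike, with log2 fold changes between the mutants of 3.69 ± 0.40 and 3.55 ± 0.32. For *Pdpn*, which encodes podoplanin, and *Prap1*, Etv5-KO was not called different from RGd2 (adjusted p = 0.349 and 0.358) and RbpJ-KO was lower. *Prap1* had 80 raw counts over the Etv5-KO libraries and 0 over the RbpJ-KO libraries, and was at least 17.6-fold higher in Etv5-KO against a floor of 3 counts over the group.

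The 2 remaining genes of that set were low in RbpJ-KO. *Dppa3*, a maternal and germ cell factor that is also a naive marker, was at 78.0, 51.5 and 53.6 in Etv5-KO, 2.10, 1.79 and 8.41 in RbpJ-KO and 137, 123 and 24.2 in RGd2 (log2 fold change 3.70 ± 0.59, adjusted p = 6.42e-06). Leaving out RbpJ-KO c36 raised its log2 fold change to 4.94. *Gadd45g*, a stress and differentiation gene of the Gadd45 family, was at 102, 72.6 and 98.4 in Etv5-KO, 2.10, 8.06 and 10.9 in RbpJ-KO and 214, 176 and 96.9 in RGd2 (11.1-fold between the mutants, log2 fold change 3.47 ± 0.39, adjusted p = 5.28e-09). Its relatives went the other way: *Gadd45a* (log2 fold change -0.90 ± 0.13, adjusted p = 6.30e-07) and *Gadd45b* (-0.52 ± 0.13, adjusted p = 0.0027) were lower in Etv5-KO.

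Most Notch receptors and Notch response genes were lower in Etv5-KO than in RbpJ-KO. Of the 4 receptors, 3 were called lower: *Notch4*, *Notch3* and *Notch1*. *Notch3* was at 1380.1, 1145 and 1039 against 3104, 2109.7 and 1938, with RGd2 at 1635, 1348 and 1668 (log2 fold change -1.0 ± 0.14, adjusted p = 3.08e-07). *Notch1* differed by -0.35 ± 0.11 (adjusted p = 0.0228), was not called with TMM (-0.17, adjusted p = 0.135), and lost its call without c17, c1, c28 or c36 (adjusted p of 0.0561 to 0.17). *Notch2* was not called in the fit of all 32 libraries with spike-ins (log2 fold change 0.28 ± 0.11, adjusted p = 0.0674) but was higher in Etv5-KO with TMM (0.47, adjusted p = 9.42e-06), with the 6 libraries alone, with DESeq2 and without RbpJ-KO c28 (0.41).

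Among the 5 ligands, *Jag1* was lower in Etv5-KO, at 302, 245 and 235 against 1359, 1133 and 1074, with RGd2 at 929.7, 743 and 460.3 between them (log2 fold change -2.19 ± 0.16, adjusted p = 3.57e-14). *Dll1* had 46.0, 60.8 and 60.5 normalized counts in Etv5-KO, 4.21, 2.69 and 10.1 in RbpJ-KO and 107, 97.0 and 96.9 in RGd2. Its log2 fold change between the mutants was 3.17 ± 0.35 (adjusted p = 4.48e-09), and 4.10 without RbpJ-KO c36, but it stayed below the FPKM minimum and was not counted as called. *Jag2* (log2 fold change 0.48 ± 0.21, adjusted p = 0.0952) and *Dll3* (0.45 ± 0.35, adjusted p = 0.401) were not called, although *Jag2* was with TMM (0.68, adjusted p = 0.00711) and without RbpJ-KO c28 (0.88). *Dll4*, with 3 raw counts over the Etv5-KO libraries and 0 over the RbpJ-KO libraries, was not detectable at this depth in either.

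The Hes, Hey and other Notch response genes formed the list with the lowest median of those with at least 6 members past the FPKM minimum. This list had 6. The Id family and the primitive endoderm markers, with 4 and 3 members past the minimum, had lower medians (-1.35 and -1.73). Of 12 listed, 8 were tested, and *Hes2*, *Hes5*, *Hes7* and *Heyl* had too few counts. Among those tested, 5 were lower in Etv5-KO and 0 higher, and the list's median was -1.25 on the log2 scale beside -0.15 for all genes (-1.07 with TMM). *Nrarp*, a feedback inhibitor of Notch, was at 42.5, 30.4 and 41.0 in Etv5-KO and 229, 199 and 190.0 in RbpJ-KO, with RGd2 at 51.1, 42.0 and 121 (log2 fold change -2.42 ± 0.21, adjusted p = 7.05e-12). The transcriptional repressor *Hey1* was at 97.5, 99.6 and 65.6 against 271, 252 and 218, and RGd2 was lowest at 62.7, 52.7 and 52.5 (log2 fold change -1.49 ± 0.19, adjusted p = 5.68e-08). *Hes1*, another repressor, was at 372, 361 and 312 against 1058, 833 and 919.6 (log2 fold change -1.42 ± 0.14, adjusted p = 2.82e-10). For these 3 genes RbpJ-KO exceeded RGd2, by 1.80, 2.11 and 0.96 on the log2 scale (adjusted p = 7.38e-08, 8.80e-10 and 5.04e-06).

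*Dtx1*, which encodes the ubiquitin ligase Deltex1, was arranged differently. It was at 288, 242 and 272 in Etv5-KO, 924, 837 and 849.8 in RbpJ-KO and 847, 675 and 779 in RGd2 (log2 fold change between the mutants -1.70 ± 0.13, adjusted p = 3.72e-13), and RbpJ-KO was not called different from RGd2 (adjusted p = 0.461). *Bhlhe40*, a bHLH repressor, was also lower in Etv5-KO (log2 fold change -1.08 ± 0.20, adjusted p = 8.20e-05) and not called different between RbpJ-KO and RGd2 (adjusted p = 0.673). *Hey2* (-0.86 ± 0.41, adjusted p = 0.138), *Hes6* (-0.06 ± 0.15, adjusted p = 0.843) and *Hes3* (1.1 ± 0.85, adjusted p = 0.398) were not called, and *Hes3* stayed under 0.1 FPKM in both mutants.

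**Figure D3:**
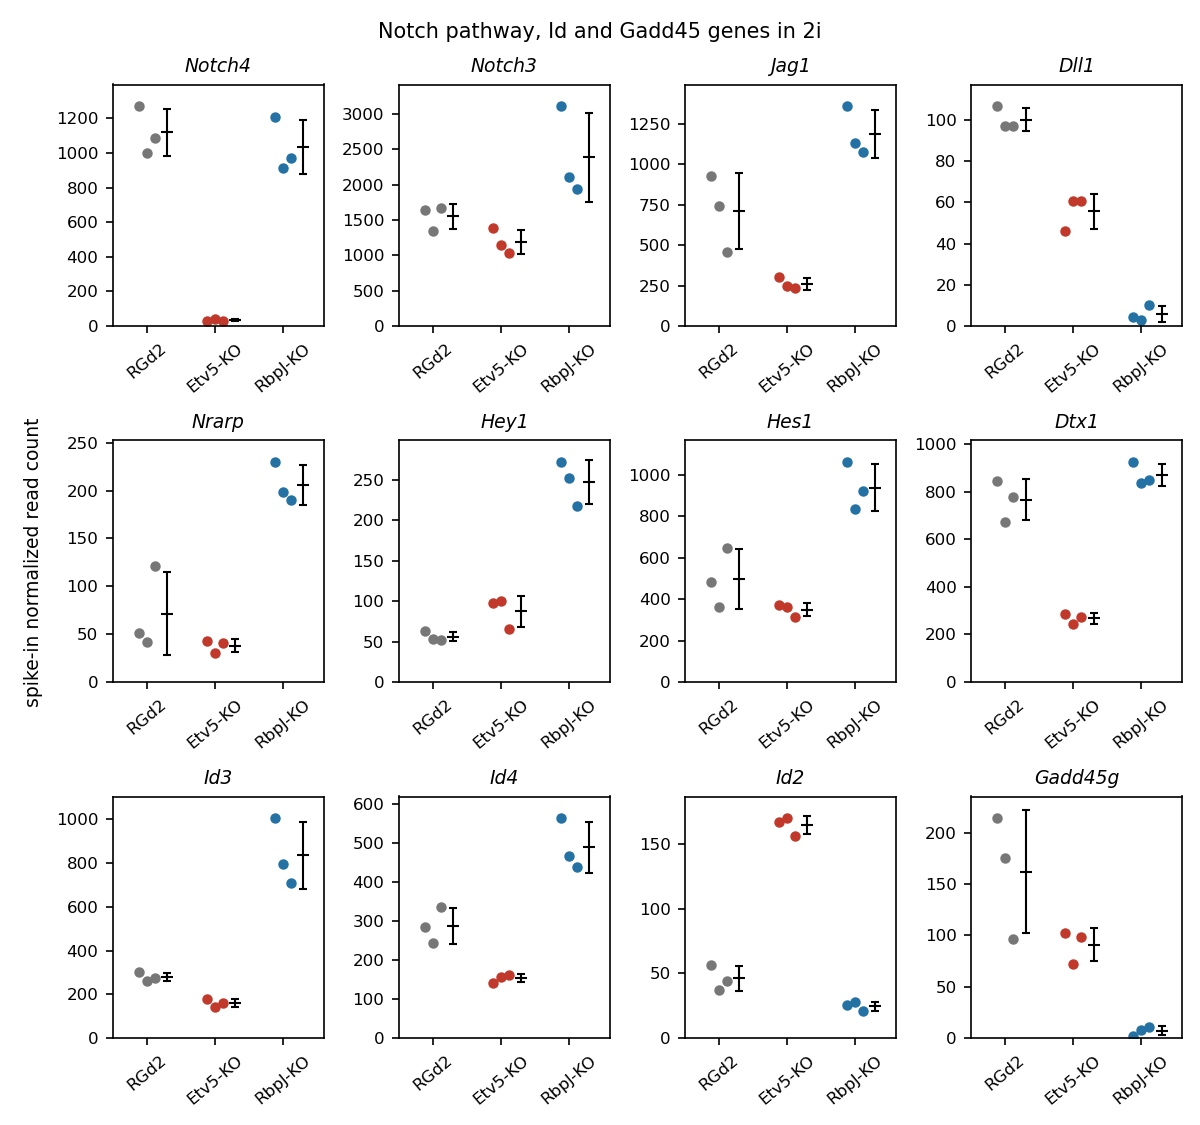
Spike-in normalized read counts (y axes, from 0, scaled per gene) of 12 Notch pathway, Id and Gadd45 genes in RGd2, Etv5-KO and RbpJ-KO cells in 2i, with points for libraries and bars for mean ± SD (n = 3). *Nrarp*, *Hey1*, *Hes1* and *Id3* are highest in RbpJ-KO, *Notch4* is lowest in Etv5-KO, and *Dll1* and *Gadd45g* are lowest in RbpJ-KO.

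The list of RBPJ cofactors includes *Rbpj* itself, its only member called higher. Of the 20 tested, 7 were lower in Etv5-KO, and the median of the whole list was -0.29 (-0.11 with TMM, where 4 were lower). *Spen*, which encodes a corepressor bound by RBPJ, was at 1849.6, 1699 and 1749 in Etv5-KO, 4877, 3633 and 4375 in RbpJ-KO and 2727, 1959 and 1506 in RGd2 (log2 fold change -1.28 ± 0.14, adjusted p = 3.90e-09). *L3mbtl3*, another RBPJ-binding repressor, differed by -0.95 ± 0.20 and *Fhl1*, a LIM protein that binds RBPJ, by -0.48 ± 0.16 with its call lost without c1, c28 or c33 (adjusted p of 0.0517 to 0.149). The count of members lower in Etv5-KO was 4 without Etv5-KO c1 and 3 without RbpJ-KO c28. Among 19 tested genes for Notch processing and modulation, 4 were lower, and the 21.1% called is near the 15.9% of all genes (median -0.19, -0.01 with TMM, where 3 were higher and 1 lower): *Fbxw7*, the ligase subunit that targets the Notch intracellular domain (log2 fold change -0.54 ± 0.10, adjusted p = 4.22e-05), *Aph1a*, a subunit of the γ-secretase that cleaves Notch (-0.36 ± 0.12), *Mib1*, the ligase for ligand endocytosis (-0.34 ± 0.12), and *Poglut1*, which glycosylates Notch (-0.31 ± 0.11). The last 3 lost their calls when libraries were left out: *Aph1a* without c17, c1, c28 or c36 (adjusted p of 0.0581 to 0.22), *Mib1* without c16, c17, c1, c28, c33 or c36 (adjusted p of 0.0582 to 0.135) and *Poglut1* without c17, c1, c28, c33 or c36 (adjusted p of 0.0511 to 0.186).

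The 4 Id genes, inhibitors of bHLH factors that respond to BMP signals, split in direction. *Id3* was lower in Etv5-KO, at 179.7, 140.2 and 161 against 1004, 795 and 707, with RGd2 at 301, 262 and 275 (log2 fold change -2.37 ± 0.16, adjusted p = 6.85e-15). *Id4* was lower, at 141, 157 and 161 against 562, 467 and 437, with RGd2 at 285, 243 and 335 (log2 fold change -1.67 ± 0.17, adjusted p = 3.11e-10). In both, Etv5-KO was below and RbpJ-KO above every RGd2 library. *Id2* was the reverse, at 167, 169.7 and 156 in Etv5-KO, 25.2, 27.8 and 21.0 in RbpJ-KO and 56.4, 37.4 and 44.4 in RGd2 (log2 fold change 2.74 ± 0.29, adjusted p = 1.90e-09). *Id1* was called lower (-1.03 ± 0.35, adjusted p = 0.032), but its libraries overlapped, it was not called with TMM (adjusted p = 0.0923), and it lost its call without c17, c1, c33 or c36 (adjusted p of 0.0832 to 0.197).

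Feedback inhibitors and early response genes of the ERK pathway were in part lower in Etv5-KO, and none was called higher. Both mutants were cultured with the MEK inhibitor. Of 27 tested, 9 were lower and 0 higher, with a median of -0.50 beside -0.15 for all genes (6 lower and a median of -0.33 with TMM, and 5 lower without Etv5-KO c1). These 9 calls are 33.3% of the list, beside 15.9% of all genes. *Dusp6*, the phosphatase that inactivates ERK, was at 95.4, 70.1 and 75.7 in Etv5-KO, 625, 598 and 512 in RbpJ-KO and 308, 215 and 319 in RGd2 (log2 fold change -2.83 ± 0.14, adjusted p = 1.27e-18). *Spry2*, a Sprouty inhibitor of receptor tyrosine kinase signalling, was at 85.7, 60.0 and 66.8 against 234, 238 and 305 (log2 fold change -1.88 ± 0.18, adjusted p = 1.38e-10). Both genes lay lower than RGd2 in Etv5-KO and higher in RbpJ-KO, by -1.76 and 1.08 for *Dusp6* and -1.14 and 0.73 for *Spry2*.

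The Myc genes on that list were lower too, *Myc* with a log2 fold change of -1.46 ± 0.18 (adjusted p = 2.09e-08) and *Mycl* with -0.93 ± 0.13 (adjusted p = 4.42e-07). *Spred2*, a Sprouty-related inhibitor, differed by -0.55 ± 0.12 (adjusted p = 0.000527). *Spry1* differed by -0.54 ± 0.18 (adjusted p = 0.0337), was not called with TMM (adjusted p = 0.204), and lost its call without c17, c1, c28 or c36 (adjusted p of 0.107 to 0.179). Of 19 tested FGF ligands and receptors, 1 was lower and 1 higher (with TMM 1 was lower and 4 higher), or 10.5% beside 15.9% of all genes. A call needs the FPKM minimum, which 8 of the 19 reached, against 11507 of the 19037 genes tested. The 2 shares are therefore not on the same footing. *Fgf17*, an FGF ligand, was at 7.66, 15.2 and 12.6 in Etv5-KO, 96.8, 127 and 101 in RbpJ-KO and 458, 335 and 379.5 in RGd2 (log2 fold change -3.21 ± 0.30, adjusted p = 5.73e-11), so it was lower than RGd2 in both mutants. *Fgfrl1*, a receptor without a kinase domain, was higher by 0.90 ± 0.22 (adjusted p = 0.00177).

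Most naive pluripotency factors were not called different between the mutants. Of 21 tested, 4 were higher in Etv5-KO and 2 lower, and their median was -0.09 (0.10 with TMM, where 8 were higher and 1 lower). Calls were still more frequent here than in general, at 28.6% beside 15.9% of all genes. The 4 of 21 higher in Etv5-KO stand beside 3.3% of all genes. *Nanog* was at 28631, 27732 and 26084 in Etv5-KO and 31495, 29086 and 26989.9 in RbpJ-KO, overlapping (log2 fold change -0.09 ± 0.10, adjusted p = 0.6). *Esrrb* (0.04 ± 0.11, adjusted p = 0.85), *Klf2* (-0.12 ± 0.20, adjusted p = 0.716), *Zfp42* (-0.29 ± 0.11, adjusted p = 0.0585) and *Tfcp2l1* (0.33 ± 0.13, adjusted p = 0.0709) were not called in the fit of all 32 libraries with spike-ins. *Zfp42* was called lower in the fit of the 6 libraries alone (-0.30, adjusted p = 0.0135) and with DESeq2 (adjusted p = 0.0461). With TMM *Esrrb* (0.22, adjusted p = 0.0248) and *Tfcp2l1* (0.51, adjusted p = 0.000151) were called higher. *Tfcp2l1* was also called with the 6 libraries alone (adjusted p = 0.00723), with no filter on low counts (adjusted p = 0.0287) and without RbpJ-KO c28 (0.41).

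The members of that list that did differ are not all core regulators. *Tcl1*, an AKT coactivator, was higher in Etv5-KO, at 3512, 3150.3 and 3046 against 1694, 1297 and 1348 (log2 fold change 1.17 ± 0.13, adjusted p = 6.64e-09). *Jam2*, a junctional adhesion molecule, was at 10686, 11248 and 9939 against 5589, 4818 and 5572 (log2 fold change 1.0 ± 0.16, adjusted p = 5.10e-06), and RbpJ-KO *Jam2* overlapped RGd2 (6508, 5502 and 4001). The nuclear receptor gene *Nr0b1* was higher by 0.58 ± 0.13 (adjusted p = 0.000699), and *Dppa3* is described above. *Zfp57*, which protects imprints, was lower (-0.72 ± 0.12, adjusted p = 7.47e-06). *Klf4* was called lower (-0.43 ± 0.13, adjusted p = 0.0122), but was not called with TMM (adjusted p = 0.0647) and lost its call without c1 or c28 (adjusted p of 0.0983 to 0.163).

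General pluripotency factors were 9 lower and 0 higher of 16 tested, with a median of -0.32 (-0.14 with TMM, where 6 were lower and 1 higher), and 5 were lower without Etv5-KO c1. With all libraries, calls covered 56.2% of this list and 15.9% of all genes. *Tdgf1*, the Nodal co-receptor Cripto, differed by -1.22 ± 0.12 (adjusted p = 2.48e-10), *Lin28b*, an RNA-binding regulator of let-7, by -1.17 ± 0.18 and *Lin28a* by -0.63 ± 0.13. *Pou5f1* differed by -0.28 ± 0.09 (adjusted p = 0.0234; -0.10 with TMM, adjusted p = 0.322) and lost its call without c17, c1 or c36 (adjusted p of 0.0619 to 0.135). *Sox2* differed by -0.47 ± 0.11 (adjusted p = 0.00225), and was not called with TMM (adjusted p = 0.0524) or without c28 (adjusted p = 0.0818). Formative factors, which mark the stage after the naive state, were 1 higher and 4 lower of 19 tested. Their median was -0.32 (-0.13 with TMM, where 2 were higher and 4 lower). The 26.3% called stands beside 15.9% of all genes, and 12 of the 19 reached the FPKM minimum, against 11507 of 19037 genes. *Otx2*, a homeobox factor of that stage, was higher in Etv5-KO, at 1032, 1143 and 998 against 639.7, 571 and 751, with RGd2 lowest at 403, 351 and 303 (log2 fold change 0.69 ± 0.12, adjusted p = 2.40e-05). *Foxp1* (-0.92 ± 0.13), *Zic5* (-0.69 ± 0.10), *Dnmt3l* (-0.56 ± 0.14) and *Dnmt3a* (-0.49 ± 0.12) were lower.

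Wnt targets differed in both directions. *T* (Brachyury), a mesoderm factor activated by Wnt, was at 11.8, 15.2 and 12 in Etv5-KO, 189, 159 and 108 in RbpJ-KO and 457, 318 and 182 in RGd2 (log2 fold change -3.51 ± 0.30, adjusted p = 6.64e-12). Of 24 tested TCF/LEF factors and Wnt targets, 3 were higher and 6 lower, with a median of -0.18 (0.00 with TMM, where 6 were higher and 6 lower). With spike-ins 37.5% were called, beside 15.9% of all genes. The 6 lower members included, besides *T*, the ligand gene *Bmp4* (-2.29 ± 0.21), the homeobox gene *Cdx1* (-1.36 ± 0.19) and the cyclin D1 gene *Ccnd1* (-0.90 ± 0.12), and higher were the bHLH gene *Ascl2* (1.49 ± 0.38), the zinc finger gene *Sp8* (0.95 ± 0.20) and the receptor gene *Tnfrsf19* (0.51 ± 0.14). *Lefty1*, an inhibitor of Nodal, was at 6717, 6063 and 5825 in Etv5-KO, 1513, 1279 and 1158 in RbpJ-KO and 5215, 3860.1 and 3525 in RGd2 (log2 fold change 2.24 ± 0.16, adjusted p = 4.54e-14). For *Lefty1*, every RbpJ-KO library lay below all others. Its relative *Lefty2* was not called with spike-ins.

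Of 29 tested genes of Nodal, activin and BMP signalling, 2 were higher, *Lefty1* and the BMP ligand gene *Bmp7* (1.01 ± 0.19, adjusted p = 8.72e-05), and 8 lower, with a median of -0.23 (-0.05 with TMM, where 5 were higher and 7 lower). In this list 34.5% were called with spike-ins, beside 15.9% of all genes. *Fst*, the activin antagonist follistatin, differed by -1.62 ± 0.22 (adjusted p = 3.27e-07) and the inhibitory *Smad7* by -0.92 ± 0.17. Of 16 genes of the LIF and STAT3 pathway, which sustains ES cell self-renewal, 37.5% were called, beside 15.9% of all genes. In this pathway 6 genes were lower and 0 higher (median -0.36, -0.17 with TMM, where 5 were lower and 1 higher). They included the feedback inhibitor *Socs2* (-1.70 ± 0.12, adjusted p = 1.87e-14), the interleukin-6 receptor gene *Il6ra* (-1.42 ± 0.17, adjusted p = 3.45e-08), the kinase gene *Pim3* (-0.71 ± 0.14), the LIF receptor gene *Lifr* (-0.47 ± 0.12) and *Stat3* (-0.41 ± 0.12, adjusted p = 0.0119), which lost its call without c1 (adjusted p = 0.0736).

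Adhesion and matrix genes differed in both directions, and many tested members could not be called because they stayed under the FPKM minimum. It was reached by 6 of 36 tested collagens, 4 of 17 cadherins, 1 of 8 protocadherins, 6 of 11 laminins and 9 of 20 integrins. Most integrins that reached it were called. The few calls among collagens, cadherins and protocadherins therefore do not show that these families differed little. *Col4a1* and *Col4a2*, which encode the chains of basement membrane collagen IV, were lower in Etv5-KO, with log2 fold changes of -3.26 ± 0.58 and -2.99 ± 0.56 (adjusted p = 3.49e-05 and 7.45e-05). *Col4a1* was at 1559, 1443 and 7934 in RbpJ-KO, with c36 far above the rest, against 329.5, 421 and 397 in Etv5-KO and 432, 354 and 1489.9 in RGd2. Without c36 the log2 fold changes were -1.97 and -1.72. Primitive endoderm markers, genes of a cell type that makes basement membrane, lay on the same side: their summed level was 59.6 to 69.2 FPKM in Etv5-KO and 73.6 to 115.3 in RbpJ-KO, and their part in the collagen difference was not tested. Of 36 tested collagens, *Col13a1* (-1.01 ± 0.21) was the other member lower, and *Col5a1* (0.41 ± 0.14) was higher, with its call lost without c16, c17, c33 or c36 (adjusted p of 0.056 to 0.219). *Cdh3* (P-cadherin, 2.27 ± 0.27) was the cadherin called of 17 tested, and *Pcdh19* (1.96 ± 0.29) the protocadherin of 8, both higher in Etv5-KO. Of 20 tested integrins, 2 were higher, *Itgb3* (1.38 ± 0.27) and *Itgb5* (1.15 ± 0.12), and 6 lower, led by *Itgb7* (-1.72 ± 0.21), *Itga9* (-1.27 ± 0.15), *Itga5* (-0.89 ± 0.17) and *Itga3* (-0.82 ± 0.14). *Lama5* (-0.50 ± 0.13, adjusted p = 0.00437) and *Lamb2* (-0.42 ± 0.15, adjusted p = 0.0388) were the laminin genes lower of 11, with calls lost without c28 (adjusted p = 0.0614) for *Lama5* and without c17, c1, c28 or c36 (adjusted p of 0.0878 to 0.222) for *Lamb2*. With TMM, laminins were 1 higher and 1 lower, and 2 cadherins were higher. The medians of integrins and laminins were -0.069 and -0.108 with spike-ins, and 0.035 and 0.06 with TMM.

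Among 19 tested simple epithelial genes, the keratin genes *Krt8* (-1.61 ± 0.20, adjusted p = 3.45e-08) and *Krt18* (-1.09 ± 0.22, adjusted p = 0.000179) and the grainyhead factor gene *Grhl3* (-1.1 ± 0.14) were lower in Etv5-KO, and *Cldn4*, which encodes the tight junction protein claudin 4, was higher (0.93 ± 0.13, adjusted p = 2.49e-07). With TMM, 4 members were higher and 3 lower, and the 21.1% called with spike-ins is near the 15.9% of all genes.

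Of 27 tested G1 and cell cycle regulators, 3 were higher and 11 lower in Etv5-KO, where 3.3% and 12.6% of all genes were (median -0.33, -0.16 with TMM, where 4 were higher and 8 lower). *E2f2*, an activator of S phase genes, differed by -1.56 ± 0.16 (adjusted p = 2.88e-10), *Cdk6*, a G1 kinase, by -0.87 ± 0.13, and *Cdkn2b*, an inhibitor of that kinase, by -0.87 ± 0.23. The 3 higher genes encode kinase inhibitors: *Cdkn1b* (0.39 ± 0.10, adjusted p = 0.00468), *Cdkn2c* and *Cdkn1c*. Other inhibitor genes went the other way, since *Cdkn2a*, like *Cdkn2b*, was called lower. *Cdkn2c* (1.02 ± 0.37, adjusted p = 0.0436) lost its call without c16, c17, c1, c33 or c36 (adjusted p of 0.0678 to 0.264), and *Cdkn1c* (2.06 ± 0.77, adjusted p = 0.0499) without c16, c17, c1, c28, c33 or c36 (adjusted p of 0.0771 to 0.13). *Cdkn1c* was also not called with TMM, with the total spike-in count or with DESeq2. Of 23 proliferation and replication genes, 6 were lower, of which *Rrm2* (ribonucleotide reductase, -0.72 ± 0.10) and *Plk1* (a mitotic kinase, -0.45 ± 0.12) differed most (median -0.21, -0.03 with TMM, where 3 were lower and 1 higher). Without Etv5-KO c1, 2 were lower, and without RbpJ-KO c28, 3 were lower. The count with all libraries is 26.1% of these genes, beside 15.9% of all genes called.

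Genes of cholesterol and fatty acid synthesis were mostly lower in Etv5-KO. Of 30 tested, 22 were lower and 0 higher, where 12.6% of all genes were lower, and the median was -0.51 (-0.33 with TMM, where 18 were lower and 2 higher). *Dhcr7*, which makes cholesterol from its last precursor, was at 643, 544 and 466 against 1231, 1114 and 1289 (log2 fold change -1.14 ± 0.14, adjusted p = 3.40e-08), with RGd2 at 1304, 1005 and 945. *Msmo1*, a sterol oxidase, was at 2155, 1911 and 1897 against 3729, 3859 and 3759 (log2 fold change -0.93 ± 0.11, adjusted p = 1.91e-08), with RGd2 at 3169, 2798 and 2556. In both genes all Etv5-KO libraries lay below all RbpJ-KO libraries. The sterol enzyme genes *Cyp51* and *Nsdhl* differed by -0.92 ± 0.11 and -0.90 ± 0.13.

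Of 29 tested glycolytic and pentose phosphate enzymes, 1 was higher and 5 lower, and the 20.7% called is near the 15.9% of all genes (median -0.21, -0.03 with TMM, where 4 were higher and 3 lower). *Pdk1*, which inhibits pyruvate dehydrogenase (-1.1 ± 0.10, adjusted p = 8.63e-11), the phosphofructokinase gene *Pfkp* (-1.01 ± 0.13) and the glucose transporter gene *Slc2a1* (-0.91 ± 0.12) were lower, and the lactate dehydrogenase gene *Ldhb* was higher (0.66 ± 0.16, adjusted p = 0.00185). The pentose phosphate enzyme gene *Rpia* (-0.48 ± 0.16) and the glucose transporter gene *Slc2a3* (-0.37 ± 0.12) were also lower, but lost their calls without c17, c1, c33 or c36 (adjusted p of 0.0508 to 0.108) and without c17, c1, c28 or c36 (adjusted p of 0.0548 to 0.128). Cytosolic ribosomal proteins depended on the scaling: with spike-ins 2 of 88 were lower, *Rpl10l* (-1.76 ± 0.21) and *Rpl22l1* (-0.59 ± 0.13), and 0 higher (median 0.03), whereas with TMM 37 were higher and 2 lower (median 0.21). Of 12 mitochondrial genome transcripts, 0 were called with spike-ins and 5 were higher with TMM.

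**Figure D4:**
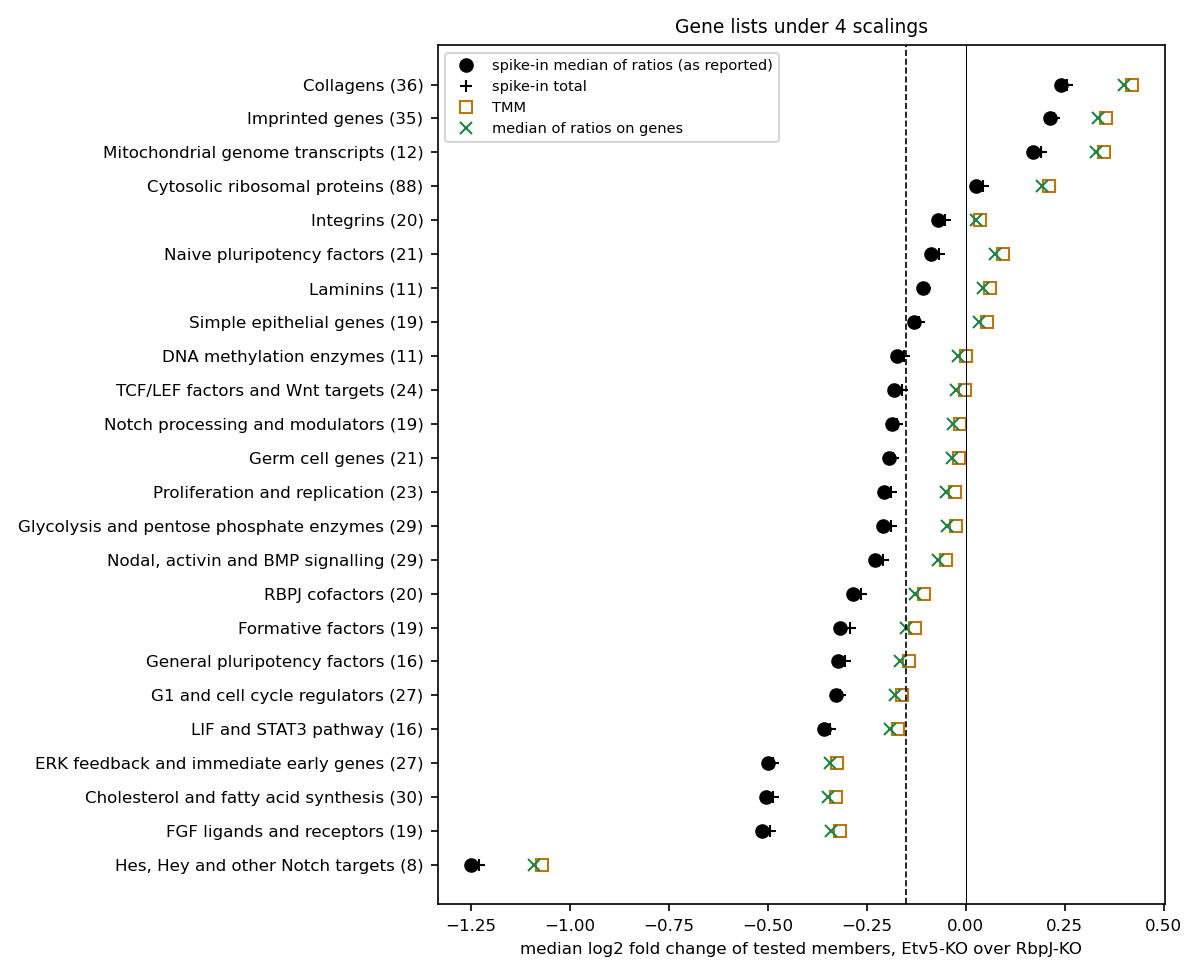
Median log2 fold change of Etv5-KO over RbpJ-KO (x axis) for 24 gene lists (rows, tested members in brackets) under 4 scalings, with the median of all tested genes with spike-ins, -0.15, as the dashed line. The Notch response genes lie furthest left under all 4 scalings, while the medians of naive factors, integrins, laminins and simple epithelial genes lie below 0 with spike-ins and above 0 with TMM.

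Imprinted genes were 8 higher and 8 lower of 35 tested, with a median of 0.21 (0.35 with TMM, where 9 were higher and 7 lower). This makes 45.7% called, beside 15.9% of all genes. Without Etv5-KO c16, 4 were higher. *H19*, a maternally expressed RNA, was at 403, 368 and 303 in Etv5-KO, 10.5, 12.5 and 98.3 in RbpJ-KO and 25.1, 30.6 and 64.6 in RGd2 (log2 fold change 2.96 ± 0.42, adjusted p = 5.85e-07). RbpJ-KO c36 stood apart at the highest value of its group, and without it the log2 fold change was 4.90. *Meg3*, a maternally expressed RNA of another domain, was lower in Etv5-KO (-1.55 ± 0.19, adjusted p = 2.29e-08), as were the neuronatin gene *Nnat* (-2.58 ± 0.34) and *Slc38a4*, an amino acid transporter gene (-2.27 ± 0.25). Of 21 tested germ cell genes, 6 were higher and 4 lower, and the higher count was 2 without Etv5-KO c17 and 3 without RbpJ-KO c33. With all libraries 47.6% were called, beside 15.9% of all genes. The list's median was -0.195 (-0.017 with TMM, where 6 were higher and 4 lower). *Rhox5*, an X-linked homeobox gene, was at 242, 234 and 239 in Etv5-KO, 1086, 1159.6 and 1333 in RbpJ-KO and 286, 259 and 210.0 in RGd2 (log2 fold change -2.33 ± 0.16, adjusted p = 1.96e-14), so that RbpJ-KO stood above both other groups. *Piwil2* (-1.15 ± 0.17) and *Mael* (-0.74 ± 0.19), of the piRNA pathway, and *Sycp3* (-0.73 ± 0.22), of the synaptonemal complex, were lower, and *Sycp3* lost its call without c1 or c36 (adjusted p of 0.087 to 0.15). The higher members included *Dppa3*, *Nanos3*, an RNA-binding factor of germ cells (0.85 ± 0.31, call lost without c16, c17, c28, c33 or c36 (adjusted p of 0.0784 to 0.205)), the homeobox gene *Rhox6* (1.01 ± 0.30, call lost without c17, c28 or c33 (adjusted p of 0.0508 to 0.101)) and *Prdm1*, which encodes BLIMP1 (0.89 ± 0.24, call lost without c17 (adjusted p = 0.0535)). Of 11 DNA methylation enzymes, 5 were lower, namely *Dnmt3a*, *Dnmt3l*, the UHRF1 relative *Uhrf2* (-0.65 ± 0.12), the glycosylase gene *Tdg* (-0.50 ± 0.12) and the dioxygenase gene *Tet3* (-0.78 ± 0.14), and 0 higher (with TMM 5 were lower and 2 higher). *Tet3* fell under the FPKM minimum without RbpJ-KO c28 or c36 (log2 fold change -0.66 and -0.77). Calls covered 45.5% of these enzymes, beside 15.9% of all genes. Of the 4 Sall genes, *Sall2* was lower (-1.14 ± 0.14).

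**Figure D5:**
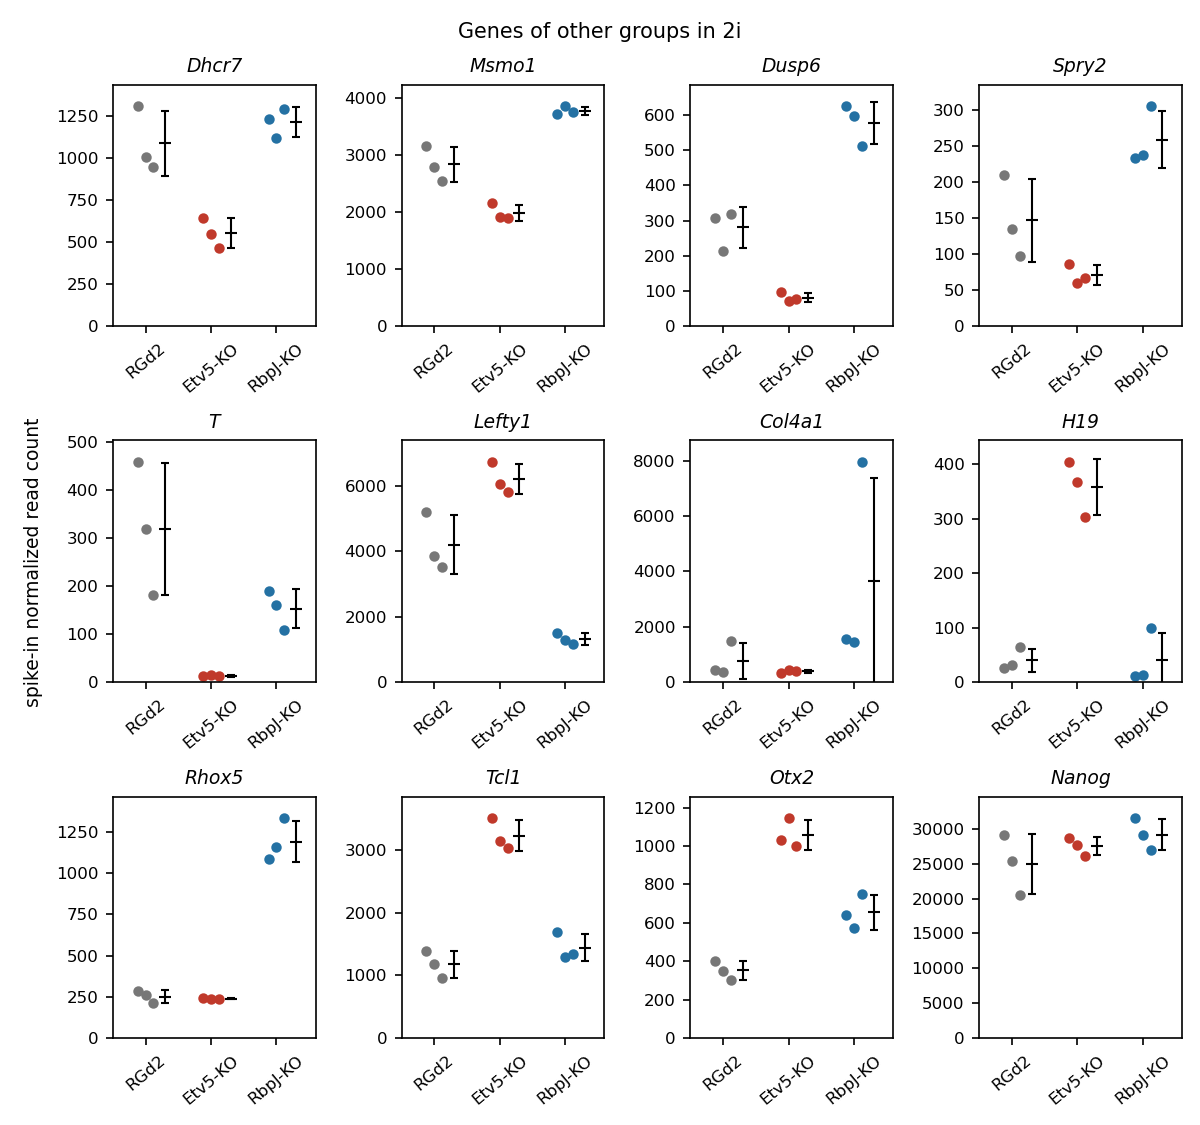
Spike-in normalized read counts (y axes, from 0, scaled per gene) of 12 genes from other groups in RGd2, Etv5-KO and RbpJ-KO cells in 2i, with points for libraries and bars for mean ± SD (n = 3), cut at 0. *Dusp6* and *T* are lowest in Etv5-KO, *Lefty1* is lowest in RbpJ-KO, *H19* and *Tcl1* are highest in Etv5-KO, and 1 RbpJ-KO library stands far above the others in *Col4a1*.

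Marker lists of other cell types were summed in each library. In the 14 mesendoderm markers, 1 reached a mean of 1 FPKM in Etv5-KO and 2 in RbpJ-KO, and *Cer1* and *Lhx1* were at 0 counts in Etv5-KO. The summed level was 5.05 to 5.35 FPKM in Etv5-KO and 14.3 to 17.7 in RbpJ-KO, and 2 were lower in Etv5-KO, *T* and *Eomes* (-2.01 ± 0.20, adjusted p = 2.58e-10). The 14 neural markers summed to 25.3 to 28.1 and 35.6 to 37.3 FPKM, with *Nes* lower, 2 markers at 1 FPKM or more in each mutant, and *Olig2* at 0 counts in all 6 libraries. The 15 primitive endoderm markers summed to 59.6 to 69.2 and 73.6 to 115.3 FPKM, and 3 of 15 reached a mean of 1 FPKM in each mutant. All 13 tested had a negative log2 fold change, from -4.81 to -0.47 with a median of -1.73 beside -0.15 for all genes (-1.54 with TMM), and 6 lay below RbpJ-KO without overlap, with *Ttr* at 0 counts in Etv5-KO and *Afp* in RbpJ-KO. *Sparc*, a matrix protein gene, was the member above the FPKM minimum that was called (-0.47 ± 0.17, adjusted p = 0.0453), and it lost its call without c16, c17, c1 or c36 (adjusted p of 0.0631 to 0.314). With TMM, 0 primitive endoderm markers were called. The 12 trophoblast markers summed to 7.66 to 10.3 and 13.1 to 18.5 FPKM, with *Ascl2* and *Tfap2a* (1.24 ± 0.34) higher and *Eomes* lower in Etv5-KO, and *Tpbpa* at 0 counts in all 6 libraries. *Eomes*, at 2.93 FPKM in Etv5-KO and 11.1 in RbpJ-KO, is also part of the mesendoderm sum. Of the 8 trophoblast markers tested, 5 lay above RbpJ-KO without overlap and 1 below. The sum and most members therefore point in different directions. The 12 fibroblast markers summed to 5.05 to 5.65 and 4.01 to 5.00 FPKM, with *Dcn*, *Lum*, *Postn* and *S100a4* at 0 counts in all 6 libraries. The median log2 fold change was -1.15 for mesendoderm, -0.60 for neural, 1.40 for trophoblast and -0.03 for fibroblast markers tested (0.11 for fibroblast markers with TMM). The 10 markers of 2-cell-like cells summed to 0.88 to 1.03 and 0.16 to 0.57 FPKM. As 0 of them reached the FPKM minimum, no member could be called. The part that other cell types play in any of the differences above was not tested.

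No autosome stood apart from the rest. The median log2 fold change of the 19 autosomes, over genes past the FPKM minimum, ranged from -0.21 to -0.12, and no autosome of any library departed from that library's overall median by more than 0.057 on the log2 scale. Chromosome X had a median of -0.20, with libraries from -0.058 to 0.068. The 5 genes of chromosome Y past the minimum had a median of 0.59 and 0 were called by edgeR, with the Etv5-KO libraries at 0.305 to 0.443 and the RbpJ-KO libraries at -0.455 to -0.283 around the overall median. Within 1 Mb of *Etv5*, 4 of 24 tested genes were higher in Etv5-KO and 1 lower, where 3.3% and 12.6% of all genes were. These were *Ehhadh*, a peroxisomal enzyme gene (1.30 ± 0.17), the RNA-binding protein gene *Igf2bp2* (0.57 ± 0.12) and the unnamed transcripts *2510009E07Rik* and *1300002E11Rik*, all higher, and *Fetub*, lower (-0.73 ± 0.18). Within 1 Mb of *Rbpj*, 2 of 12 were higher in Etv5-KO, *Sepsecs* (0.39 ± 0.13) and *Pi4k2b* (0.37 ± 0.14), with calls lost without c16, c17, c28 or c36 (adjusted p of 0.0507 to 0.133) and without c16, c1, c28 or c33 (adjusted p of 0.0836 to 0.239).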

How the data were processed

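RNA was measured by strand-specific paired-end sequencing after ribosomal RNA depletion. Per the submitters' notes the tools were Trim Galore for trimming, TopHat2 for alignment to mm10 and the ERCC sequences, and featureCounts for unique reads per gene. The deposited values are raw counts per gene and per spike-in. The deposited length column is in bases and served for FPKM. The 32 libraries were fitted together in edgeR 4.0.16 (R 4.3.3) with quasi-likelihood tests, 1 coefficient per condition and size factors from 52 spike-ins above 0 in every library, and the 2 mutants were contrasted; p-values were Benjamini-Hochberg adjusted over 19037 genes kept by filterByExpr. SE is the absolute log2 fold change divided by the root of F. Spike-in shares were compared by exact permutation. Genes named were the targeted pair, the 12 with the largest fold per direction among called genes without overlap between libraries and with at least 10 counts in a library, members of 7 short lists, and up to 6 called members of each other list; *Pou5f1* and genes near the targets were named after their values were seen, and a few genes are not reported here. Members and lists were chosen with earlier results of these data known. *Lefty2* and *Cdkn2a* were named, without values, after theirs were seen. The fit was tested on simulated data with 50 changed genes per size. At a log2 fold change of -0.5 it recovered 16 of 50, at -1 46, at 1 47 and at -2 50. In that run 7 unchanged genes were called. Differences as small as many of those not called here would thus often be missed. Every replicate pair differed by more than sampling noise (mean chi-square per gene 8.23 to 22.8). Alternatives were TMM, other size factors, DESeq2 1.42.0, other filters and leaving out each clone. Guides were placed through GENCODE vM21 transcripts (GRCm38).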

Additional observations from a re-analysis of the deposited data

How the results depend on the processing

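The counts called, 629 higher and 2396 lower in Etv5-KO, depended most on the scaling: TMM gave 1870 higher and 1512 lower, and the median of ratios on the gene counts 1747 higher. Without the FPKM minimum 971 were higher, and with a fold change of at least 1.5 there were 409 higher and 1135 lower. Leaving out each library in turn gave 462 to 623 higher and 1478 to 2431 lower, the lowest lower count being without Etv5-KO c1. The total spike-in count, DESeq2, the 6 libraries alone and the other filters stayed within 1.5 times in both directions, and the difference in spike-in share was 0.0767 percentage points with either set of spike-ins. Of 163 genes with values in the text, 149 were called, and 123 of these kept their call and direction in every alternative run (at most 13 per gene). The called genes *Aph1a*, *Cdkn1c*, *Fhl1*, *Id1*, *Klf4*, *Lamb2*, *Mib1*, *Notch1*, *Poglut1*, *Pou5f1*, *Rpia*, *Slc2a3*, *Sox2*, *Sparc* and *Spry1* were not called with TMM (adjusted p of 0.0524 to 0.326). Direction turned in genes that were not called. With TMM and with the median of ratios on genes, the log2 fold change of *Nanog* was 0.095 and 0.073, of *Klf2* 0.071 and 0.047, and of *Hes6* 0.128 and 0.109. Leaving out each library gave -0.282 (without c16) to 0.811 for *Dll3*, -0.142 to 0.041 (without c28) for *Hes6*, -0.044 (without c16) to 1.86 for *Hes3*, -0.036 (without c16) to 0.121 for *Esrrb*, and -0.277 to 0.192 (without c28) for *Klf2*. The cause of these changes was not tested. No paired analysis was possible because the 2 groups share no replicate number. Genes at low depth, such as *Dll4*, cannot show a difference here.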
